A study of Mus musculus with 6 samples.

Results

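The genes described here encode the proteins of the cytosolic ribosome. They were taken by name from the array's annotation: Rpl or Rps followed by a digit, or Rplp0, Rplp1, Rplp2 and Rpsa, without the Rps6k kinases and without symbols marked as pseudogenes, on a probe set that names a single gene. The rule found 69 genes among the 22180 genes so measured, and each was read from its brightest probe set. It also took Rps19bp1, which encodes a binding partner of a ribosomal protein, and Rps23rg1, a retroposed copy of Rps23. RefSeq annotates another 2 of the 69, Rpl6l and Rps4l, as pseudogenes.

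Both groups were endothelial cells of the bone marrow, from male mice of the C57BL/6J strain, with 3 arrays labelled diabetic and 3 labelled nondiabetic. Diabetes of type 2 was modelled by feeding a diet with 60 kcal% fat for 4 months. The labels of all 6 samples carry this same diet text, so the diet of the nondiabetic mice is not settled by them. Each sample started from 5000 cells collected by flow cytometry, whose RNA was amplified before hybridisation. The labels do not give the age of the mice or say whether arrays of a group came from separate animals. The p-values therefore rest on the spread between these arrays. Those from limma also draw on the spread of all tested genes. The study's title names the regulation of myelopoiesis in diabetes by these cells. The comparison here asks whether ribosomal protein transcripts differed between the groups.

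The cytosolic ribosome joins a small subunit, which holds the mRNA and reads its codons, to a large subunit, which forms peptide bonds and releases the chain through an exit tunnel. Most of its proteins are needed in equal numbers and are made from single active genes scattered over the genome. Their mRNAs begin with a terminal oligopyrimidine tract, a C followed by a run of C and T, through which the mTOR pathway adjusts their translation. This control acts on ribosome loading, which an array of total RNA does not read. Inherited loss of one copy of several of these genes causes Diamond-Blackfan anaemia, a failure of red cell production in the marrow.

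Sequence around the start site was taken from RefSeq (GRCm38.p6), in which 54 of the 69 genes had a promoter window of 250 bases before to 50 after the start. Among the 16 genes with the smallest p-values, 8 in each direction, 13 had such a window. Of these 13, 5 had a pyrimidine run (a C followed by at least 4 C or T) that began within 5 bases of an annotated start. Those 5 are shown with that of Rps6, the S6 protein phosphorylated downstream of mTOR, because the run is the family's known control element. Each stretch covers 15 bases on either side of the start, 5′ to 3′ on the gene's strand, with the run in capitals. The start shown for Rps27l lies downstream of the gene's first annotated base, chr9:66944624.
Rpl34, chr3:130730384-130730413, minus strand: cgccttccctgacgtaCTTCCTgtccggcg
Rps23rg1, chr8:3567983-3568012, plus strand: gctttgcagagagtCTTTCTCTCaccccag
Rpl39, chrX:37085208-37085237, minus strand: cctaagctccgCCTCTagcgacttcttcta
Rps27l, chr9:66946071-66946100, plus strand: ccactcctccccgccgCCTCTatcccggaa
Rps23, chr13:90923107-90923136, plus strand: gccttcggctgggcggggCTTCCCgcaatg
Rps6, chr4:86857353-86857382, minus strand: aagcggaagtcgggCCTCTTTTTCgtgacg

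Such a run lay at a start of 23 of the 54 genes (42.6%) and of 21.2% of the 27025 genes with a window. Motifs were searched on both strands of the whole window. Some genes have several windows (63 for the 54 genes, 32851 for all). A gene counted once, if any of its windows matched. CCGGAAG, the core bound by ETS family factors, was present in 23 of the 54 (42.6%) against 9.93% of all genes. Its reverse complement, CTTCCGG, can share the letters CTTCC with a pyrimidine run. The sequence TCTCGCGAG was present in 6 (11.1%) against 0.762%. AAGATGGC, the YY1 core, was present in 3 (5.56%) against 3.19%, and TATAAA in 6 (11.1%) against 15.7%. These matches describe letters in the window and say nothing of binding. The TCTCGCGAG stretches of Rps19, Rps28 and Rps6 are shown because these genes recur below, with the motif in capitals.
Rps19, chr7:24884555-24884584, plus strand: gtttagccgcTCTCGCGAGcactccgaaat
Rps28, chr17:33824544-33824573, minus strand: ccgcgtgcggTCTCGCGAGagcgaaagtga
Rps6, chr4:86857399-86857428, minus strand: cgccggctgtTCTCGCGAGaacttagagcg

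The deposited values are log2 levels, and the median of all probe sets lay between 5.21 and 5.28 on the 6 arrays. All 15 endothelial markers, Cdh5, Pecam1 and Kdr among them, were measured above the dim limit, and their mean level per array was 8.95 to 9.61 in the diabetic and 9.01 to 9.49 in the nondiabetic group. Markers of marrow blood cells were also present. The mean of 10 neutrophil markers was 7.04 to 7.09 in the diabetic and 6.67 to 6.92 in the nondiabetic arrays. That of 9 monocyte and macrophage markers was 6.19 to 6.37 against 5.81 to 6.08. That of 9 of 10 listed B lymphoid markers was 5.55 to 5.92 against 5.37 to 5.57. That of 8 plasma cell markers was 7.02 to 7.72 against 6.77 to 7.35. The group means of 5 erythroid markers (6.41 against 6.38), 10 stem and progenitor markers (7.27 against 7.29) and 9 stromal markers (6.55 in both) lay close together. Of the 15 endothelial markers, 3 stood higher and 12 lower in the diabetic arrays. All 8 tested neutrophil and all 8 plasma cell markers stood higher, as did 6 of 7 tested monocyte and macrophage markers. Of the 7 B lymphoid markers tested, 4 stood higher and 3 lower. Higher too were 3 of 5 erythroid, 5 of 10 stem and progenitor and 3 of 7 tested stromal markers. The share over all tested genes was 54.0%. None of these lists held a gene that passed the adjusted test. No marker is at 0 on this scale, and the part of such cells in any value below was not tested. In such bulk samples, fewer cells of a type and less RNA per cell cannot be told apart.

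Of the 69 genes, 60 passed the limit for dim genes (a mean of log2 5.07 over the 6 arrays) and were tested. The 9 left out were Rpl3l, Rpl5, Rpl10l, Rpl30, Rpl32l, Rpl37, Rplp2, Rps15 and Rps29, whose untested differences ran from -0.57 for Rps15 to 0.41 for Rpl37. No ribosomal protein gene differed between diabetic and nondiabetic cells at an adjusted p under 0.05 (limma, Benjamini-Hochberg over 13308 genes). The smallest adjusted p among the 60 was 0.997, and 0.00751% of all tested genes, 1 gene, passed. At an unadjusted p under 0.05 there was 1 of the 60 (1.67%), Rpl34, which stood higher in the diabetic arrays. The background was 3.19% higher and 1.07% lower among all tested genes. The call of 0 ribosomal protein genes held in all alternative settings that were run.

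The direction was uneven but the sizes were small. The diabetic mean was the higher in 46 of the 60 genes (76.7%) and the lower in 14, where 54.0% of all tested genes were higher. When the arrays were quantile normalized again, the split was 39 higher (65.0%) and 21 lower. The median difference was 0.085 on the log2 scale against 0.019 for all tested genes, and single differences ran from -0.35 for Rps23rg1 to 0.73 for Rpl34. All 3 diabetic values lay above all 3 nondiabetic values in 4 of the 60 (6.67%), near the background of 5.28%. No gene had them all below, where the background was 2.67%. The genes share their arrays, so these counts are a description and not independent evidence.

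**Figure D1:**
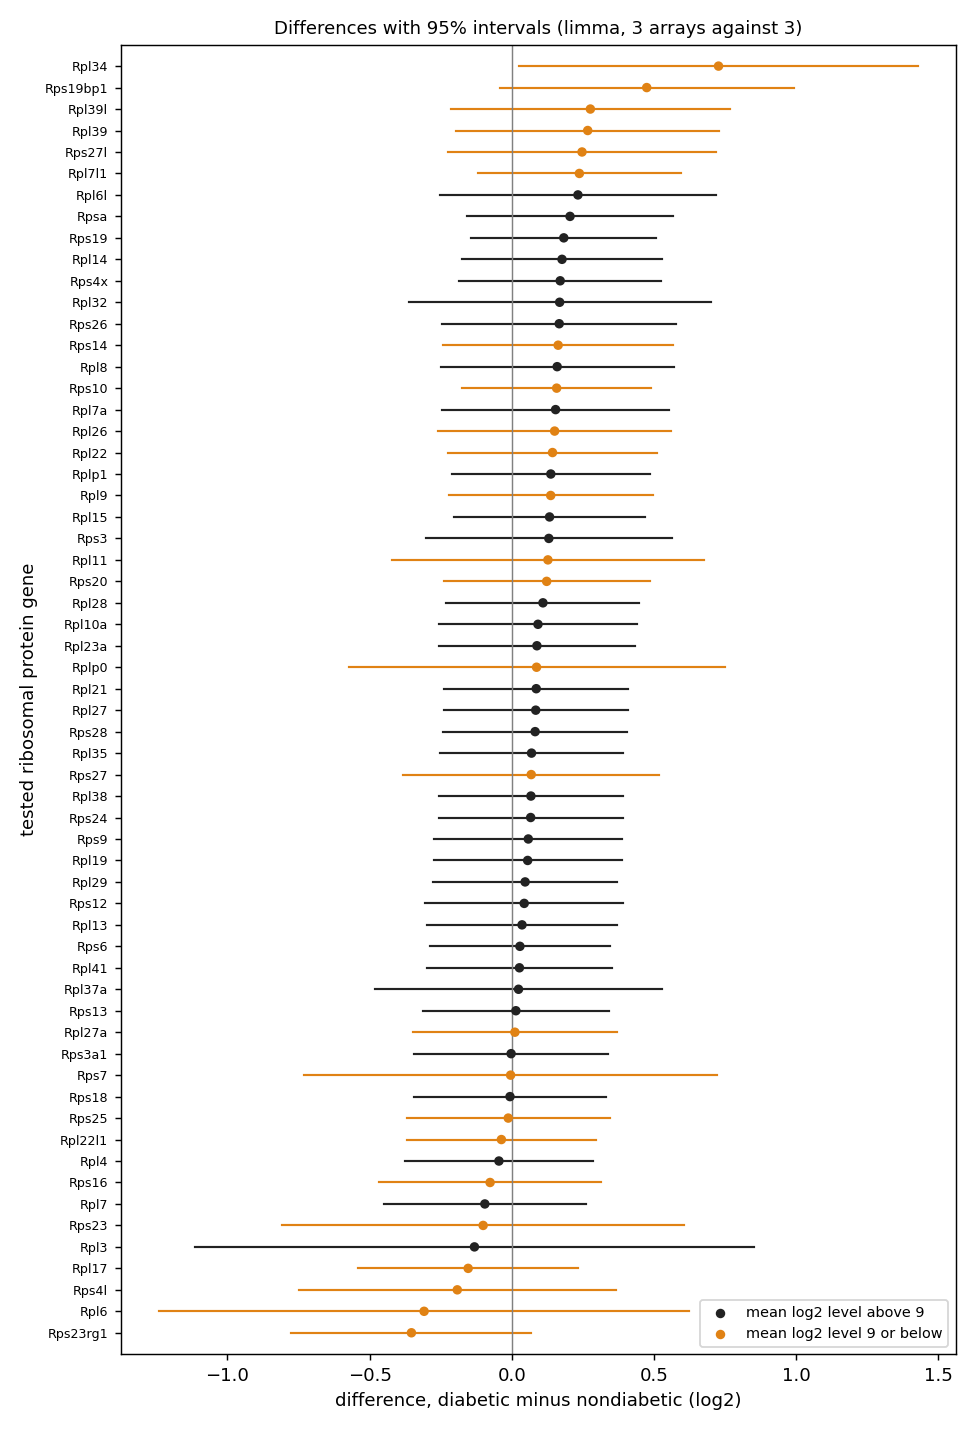
Each point is the difference in log2 level, diabetic minus nondiabetic, of a tested ribosomal protein gene, and each line its 95% interval from limma (3 arrays against 3); black marks a mean level above 9 and orange 9 or below. The 60 differences lie from -0.35 to 0.73, and only the interval of Rpl34 leaves out 0.

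The intervals limit how large a change could have passed unseen. The 95% interval lay within 0.5 log2 units of 0 in 30 of the 60 genes (50%), against 28.7% of all tested genes, and within 1 unit in 57 (95%), against 89.4%. Ribosomal protein genes were read with less spread: their median within-group SD was 0.131, and that of all tested genes 0.240. Part of this goes with brightness. The 35 ribosomal protein genes with a mean level above 9, a split chosen after the values were seen, had a median within-group SD of 0.099. The 741 tested genes above that level had 0.204. The 25 dimmer ones had 0.214.

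**Figure D2:**
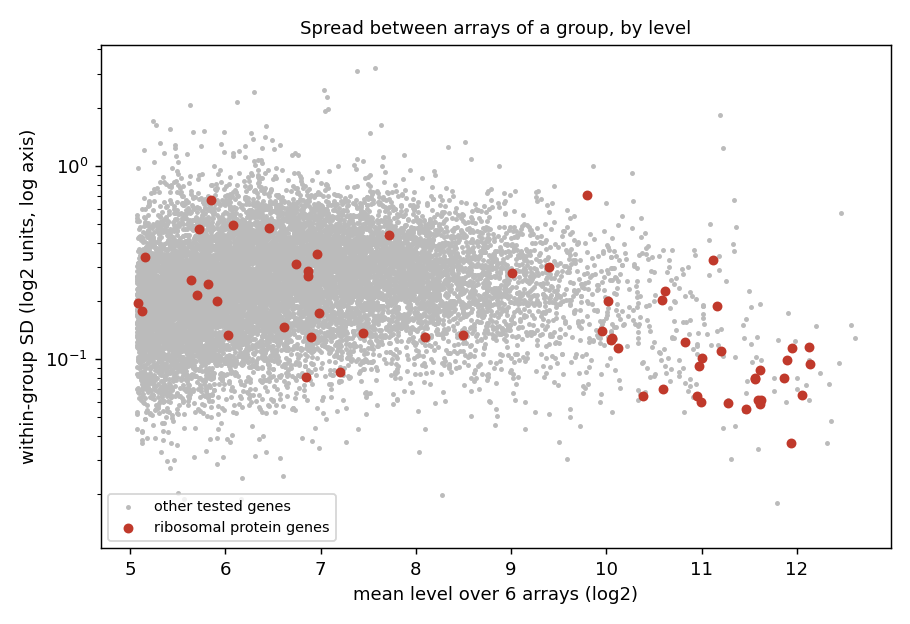
The within-group SD (log axis, log2 units) of each of the 13308 tested genes is plotted against its mean log2 level over 6 arrays, with ribosomal protein genes in red. Most bright ribosomal protein genes lie low in the cloud, with Rps6 lowest at 0.037 and Rpl3 highest at 0.703.

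The P stalk is the arm of the large subunit that recruits and activates elongation factors. Rplp1, one of its acidic proteins, measured 12.18, 12.28 and 12.13 in the diabetic arrays and 12.02, 12.22 and 11.94 in the nondiabetic arrays. The groups overlapped, and the difference was 0.14 ± 0.15 (SE, n = 3 arrays a group; 95% interval -0.21 to 0.49). Rplp0, the stalk base, measured 8.10, 8.06 and 7.14 against 7.62, 8.01 and 7.40, a difference of 0.09 ± 0.29 (SE). The diabetic array numbered 3 was the lowest of the 6. A second probe set of Rplp0 gave the opposite sign, -0.37. Rplp2 was too dim to test on its own probe set, with a mean of 4.59. Rpl10a, the protein of the L1 stalk beside the exit site for tRNA, differed by 0.09 ± 0.15 (SE).

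In the 5S particle, the assembly intermediate of 5S rRNA with 2 proteins that can also bind Mdm2, both genes were near or below the limit. Rpl11 measured 5.73, 5.04 and 4.88 against 5.27, 4.93 and 5.07. Only its first diabetic array stood above all the others, and the difference was 0.13 ± 0.24 (SE). Rpl5 had a mean of 4.93 and was not tested. The nearest genes around the limit were Rps14, just above it at 5.08, and Rps15, just below at 4.98. Rps15 measured 3.95, 4.84 and 5.29 against 5.07, 5.45 and 5.27, with the first diabetic array lowest.

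In the large subunit as a whole (symbols starting with Rpl), 29 of 35 tested genes stood higher in the diabetic arrays, with a median difference of 0.089. This count by symbol includes Rpl6l, annotated as a pseudogene. Among the proteins that line or surround the exit tunnel, 6 of 8 tested genes stood higher, with a median of 0.08. Rpl4, which reaches into the tunnel, measured 11.85, 11.92 and 11.77 against 11.94, 11.94 and 11.80. The groups overlapped and the interval of its difference was -0.38 to 0.29. Rpl17, at the tunnel exit, measured 6.97, 6.89 and 6.87 against 6.80, 7.12 and 7.27, a difference of -0.15 ± 0.17 (SE). Rpl39, the small tunnel protein, measured 5.85, 5.95 and 5.53 against 5.84, 5.34 and 5.35, a difference of 0.27 ± 0.20 (SE). Both sets of values overlapped between the groups.

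Rpl34, a large subunit protein, had the largest difference of the family. It measured 6.10, 6.33 and 5.82 in the diabetic arrays (6.08 ± 0.26, SD, n = 3) and 4.77, 6.00 and 5.29 in the nondiabetic arrays (5.35 ± 0.62, SD, n = 3). The second nondiabetic array lay above the third diabetic one, so the groups overlapped. The difference was 0.73 ± 0.30 (SE), with a limma p of 0.0434 before and 0.997 after adjustment. An exact two-sided permutation test of this gene gave p = 0.2, where 0.1 is the smallest that 3 arrays against 3 allow. A far brighter probe set, which names Rpl34 together with Rpl34-ps1, measured 11.84, 11.74 and 11.55 against 11.87, 11.71 and 11.67, a difference of -0.04 ± 0.15 (SE). The reading of Rpl34 therefore depended on which probe set was used.

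The spread between arrays was widest in Rpl3 and Rpl6. Rpl3, which lies near the peptidyl transferase centre, measured 10.02, 9.99 and 9.19 against 9.56, 9.18 and 10.85. Its nondiabetic arrays covered more than the whole diabetic range, and the interval of its difference ran from -1.11 to 0.85. Rpl6 measured 5.88, 5.66 and 5.53 against 5.22, 5.75 and 7.02. A single nondiabetic array stood far above the other values, and the difference was -0.31 ± 0.41 (SE). Without that array the difference was 0.20. Rpl7 lay between 9.83 and 10.17 in the diabetic and between 10.04 and 10.14 in the nondiabetic arrays, with overlap and a difference of -0.09 ± 0.15 (SE). Rpl41, the shortest of the proteins and among the 4 brightest genes, differed by 0.03 ± 0.14 (SE).

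For the small subunit (symbols starting with Rps), 17 of 25 tested genes stood higher in the diabetic arrays, with a median difference of 0.067. This count by symbol includes Rps19bp1, which encodes a binding partner, Rps23rg1, a retroposed copy of Rps23, and Rps4l, annotated as a pseudogene. Rps19, in the head of the subunit and the gene most often mutated in Diamond-Blackfan anaemia, measured 10.55, 10.45 and 10.43 (10.48 ± 0.06, SD, n = 3) against 10.24, 10.37 and 10.27 (10.30 ± 0.07, SD, n = 3). All 3 diabetic arrays stood above all 3 nondiabetic arrays. The difference was 0.18, with a 95% interval of -0.14 to 0.51 and a limma p of 0.230. The SE from limma was 0.14, where the spread of its own arrays alone gave 0.05. The exact two-sided permutation p was 0.1, the smallest possible. A far dimmer probe set of Rps19, at a mean of 4.91, gave -0.04 with overlap. Rpsa, which also serves as a laminin receptor, measured 10.09, 10.14 and 9.93 against 9.66, 9.97 and 9.91, with overlap. Its difference was 0.21 ± 0.16 (SE), and a second probe set gave 0.23.

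The other 3 genes without overlap between the groups were Rps28, Rpl27 and Rpl7l1, and the first pair is named for that after the values were seen. Rps28, at the mRNA exit, measured 11.41, 11.28 and 11.27 against 11.24, 11.22 and 11.26. The gap between the lowest diabetic and the highest nondiabetic value was narrow, and the difference was 0.08 ± 0.14 (SE). Rpl27, of the large subunit, measured 11.63, 11.73 and 11.63 against 11.61, 11.63 and 11.50, a difference of 0.08 ± 0.14 (SE). Its lowest diabetic value, 11.6298, lay barely above its highest nondiabetic value, 11.6269. A second, dimmer probe set, with overlap in both genes, gave -0.05 for Rpl27 and 0.24 for Rps28. The 95% interval ran from -0.24 to 0.41 for Rpl27 and was almost the same for Rps28. None of the 4 genes passed the unadjusted test.

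**Figure D3:**
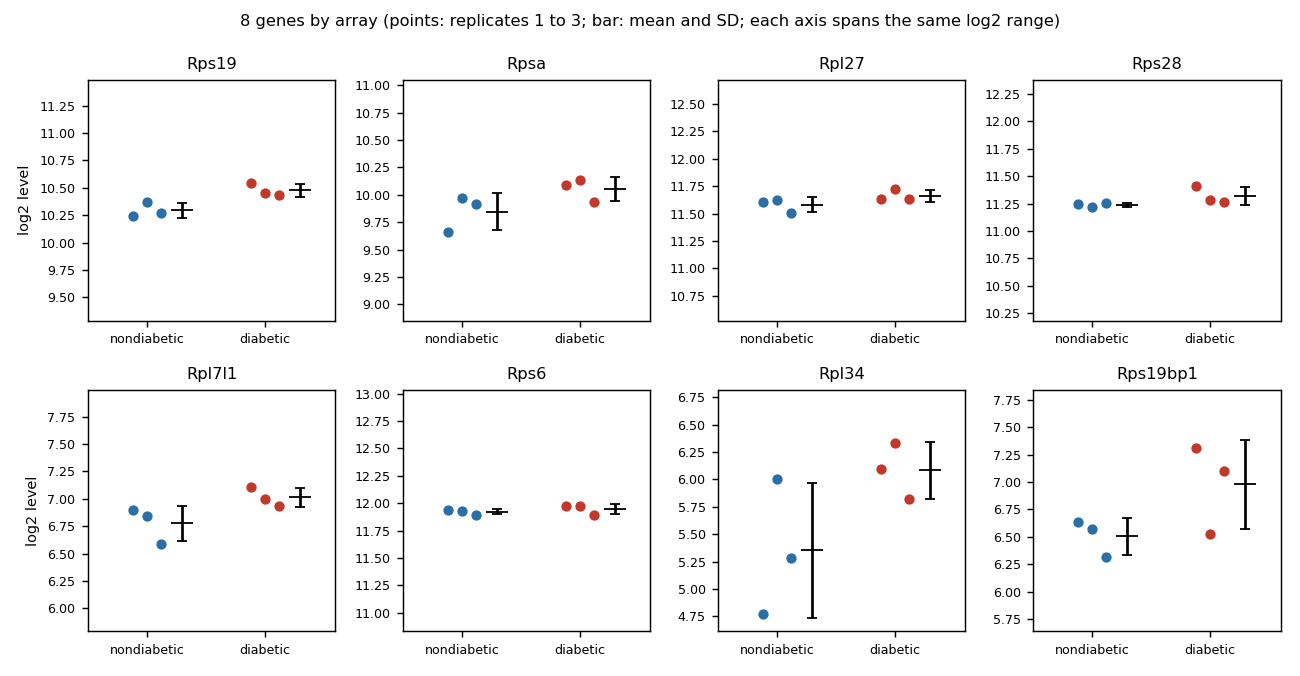
Log2 levels of 8 genes in each array (points, nondiabetic in blue and diabetic in red) with the group mean and SD (bars); every panel spans the same log2 range. The groups do not overlap for Rps19, Rpl27, Rps28 and Rpl7l1, overlap for Rpsa and Rps6, and are widely spread for Rpl34 and Rps19bp1.

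Rps6 was the steadiest gene of the family. It measured 11.98, 11.97 and 11.89 in the diabetic and 11.94, 11.93 and 11.89 in the nondiabetic arrays, a difference of 0.03 ± 0.14 (SE; 95% interval -0.29 to 0.35). Rps18, in the head, had a mean level of 12.14 and a difference of -0.0060. Rps12 differed by 0.04 ± 0.15 (SE). The dimmer small subunit genes were less precise. Rps23, which sits at the decoding centre, measured 6.60, 6.42 and 6.20 against 7.24, 6.23 and 6.04, where the first nondiabetic array stood highest. Rps7 measured 6.61, 6.28 and 5.36 against 5.84, 6.06 and 6.37, with a difference of -0.0039 and an interval of -0.73 to 0.72. Rps14, lost in the 5q- syndrome of human marrow, measured 5.30, 5.32 and 4.85 against 5.05, 5.03 and 4.91, a difference of 0.16 ± 0.18 (SE). Rps16 was 5.13, 5.28 and 4.85 against 5.29, 5.12 and 5.07, with overlap and a difference of -0.08 ± 0.17 (SE).

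Of 20 listed Diamond-Blackfan genes, 15 were measured and 13 tested. Their diabetic mean was the higher in 12 of the 13, where 54.0% of all tested genes and 76.7% of the tested family were higher. The median difference was 0.12, and none passed the test. Rps7 was the gene on the other side. This list overlaps the subunit groups above and rests on the same arrays.

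Several ribosomal proteins have a paralog, a second gene that can take the parent's place in the ribosome or is used in particular tissues. Of 11 listed paralogs, 5 could be tested. Rpl7l1 lay between 6.94 and 7.10 in the diabetic arrays and measured 6.90, 6.84 and 6.59 in the nondiabetic arrays, without overlap. The difference was 0.24 ± 0.16 (SE), and its parent Rpl7 is given above. Rpl39l measured 6.55, 7.20 and 7.28 against 6.70, 6.78 and 6.72, where the first diabetic array was the lowest of all. The difference was 0.28 ± 0.21 (SE). Its parent Rpl39 differed by 0.27 on its own probe set and by 0.12 on a brighter one that names other genes too.

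Rps27l, a p53 target, measured 7.03, 6.74 and 7.21 against 7.03, 6.44 and 6.77, a difference of 0.25 ± 0.21 (SE). Its parent Rps27 differed by 0.07 ± 0.20 (SE). Rpl22l1 and Rpl22, which regulate each other in lymphoid cells, differed by -0.04 ± 0.14 and 0.14 ± 0.16 (SE). The values of all these genes overlapped between the groups. Rps4l measured 7.16, 6.31 and 7.12 against 6.99, 7.16 and 7.01, with the second diabetic array lowest, and its parent Rps4x differed by 0.17 ± 0.15 (SE). The striated muscle paralog Rpl3l and the testis paralog Rpl10l were dim, at means of 4.64 and 3.32. No test of a paralog against its parent was made.

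The binding partner Rps19bp1 and the retroposed copy Rps23rg1 stood at the edges of the family. Rps19bp1 measured 7.31, 6.53 and 7.10 against 6.63, 6.57 and 6.31, a difference of 0.47 ± 0.22 (SE; limma p = 0.0669, exact permutation p = 0.3). The second diabetic array lay among the nondiabetic ones. Rps23rg1 measured 5.27, 5.47 and 5.83 against 6.00, 5.81 and 5.81, a difference of -0.35 ± 0.18 (SE; limma p = 0.0902, exact permutation p = 0.3). The third diabetic array lay within the nondiabetic range.

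Across the family the arrays of the diabetic group were not alike. The mean over the 60 tested genes was 9.25, 9.19 and 9.05 in the diabetic arrays and 9.05, 9.10 and 9.10 in the nondiabetic arrays. The first 2 diabetic arrays stood above all the rest, and the third lay at the lowest nondiabetic value. This gives 9.16 ± 0.10 against 9.08 ± 0.03 (SD, n = 3). The third diabetic array was the lowest of its group in 50 of the 60 genes (83.3%), against 41.1% of all tested genes. Among genes with a mean above 9 it was lowest in 32 of 35 ribosomal protein genes and in 58.0% of all tested genes. The mean over all 13308 tested genes was 6.84, 6.71 and 6.69 against 6.70, 6.73 and 6.70, where only the first diabetic array stood apart.

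Without the third diabetic array, 25 of the 60 genes had both remaining diabetic arrays above all nondiabetic ones, where 12.9% of all tested genes did, and the median difference was 0.13. That array is singled out here after the values were seen, as the lowest of its group in 50 of the 60 genes. The rise in both numbers follows from that choice and is no evidence of a difference between the groups. No ribosomal protein gene passed the adjusted test without the third diabetic array either. Without the first diabetic array the median difference was 0.04. The same 3 arrays did not order alike for blood cell markers. The third was lowest for monocyte and macrophage (6.19) and B lymphoid markers (5.55), but neutrophil markers were level at 7.05, 7.09 and 7.04. Endothelial markers were highest in the first at 9.61 and lay at 8.95 in both others. Their part in the ribosomal protein values was not tested.

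**Figure D4:**
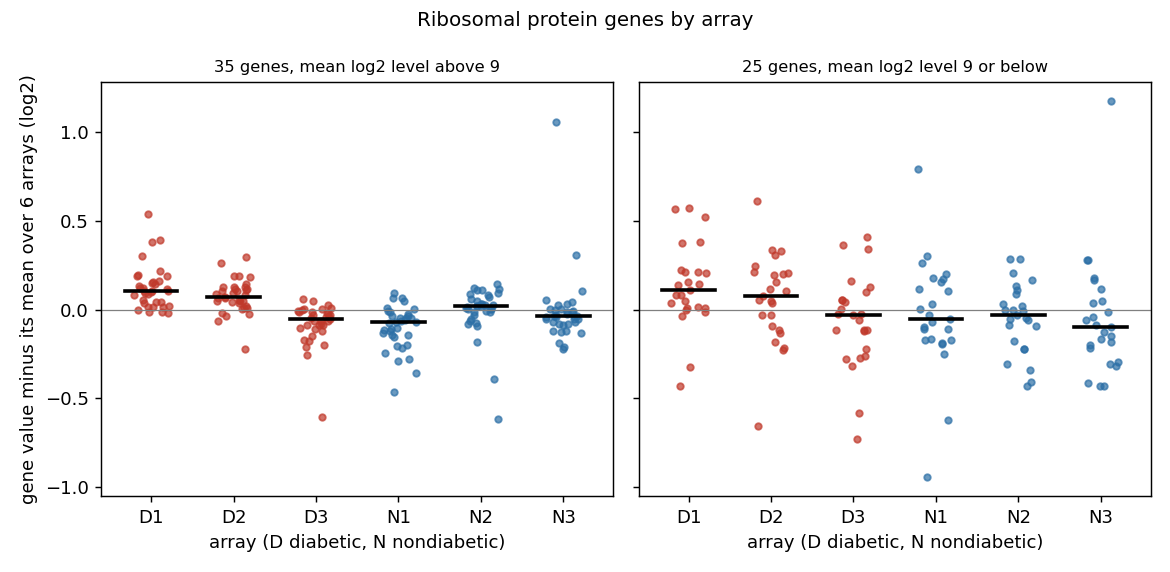
Each point is a gene's log2 value in an array minus its mean over the 6 arrays, for 35 bright and 25 dimmer ribosomal protein genes, with the median of each array as a bar (D diabetic in red, N nondiabetic in blue). Among bright genes the first 2 diabetic arrays stand above 0 and the third below, and the nondiabetic arrays lie around or below 0.

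After the group means were removed, the median correlation between pairs of ribosomal protein genes over the 6 arrays was 0.27. It was 0.48 among the 35 bright ones, 0.21 among all tested genes of that level, and 0.04 among all tested genes. These are descriptions: each rests on 6 points that share arrays and normalization.

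Many ribosomal protein genes have near-identical processed pseudogenes, so a probe set may read more than its named gene. The 69 genes had 110 probe sets that named them alone, and 30 further probe sets named 1 of the 69 together with another gene. In 17 genes the probe sets naming the gene alone lay over 3 log2 units apart. Probe sets can differ in affinity and in the transcripts they bind, so levels of different probe sets are not compared as amounts of RNA. For 10 genes a shared probe set was brighter than the one used. In 8 of these the shared probe set had a mean level above 9, a split chosen after the values were seen. It lay between 10.69 and 12.45 there, and its differences ran from -0.04 to 0.19. The private probe sets of the same 8 genes gave -0.21 to 0.73. Their median within-group SD was 0.222, against 0.082 for the shared ones. Dimmer shared probe sets were those of Rpl39 and Rplp2. For Rpl39 it lay at 6.70 and differed by 0.12 ± 0.14 (SE). For Rplp2, named there with Snora52, it lay at 7.69 and differed by 0.85 ± 0.66 (SE), with a within-group SD of 0.992.

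**Figure D5:**
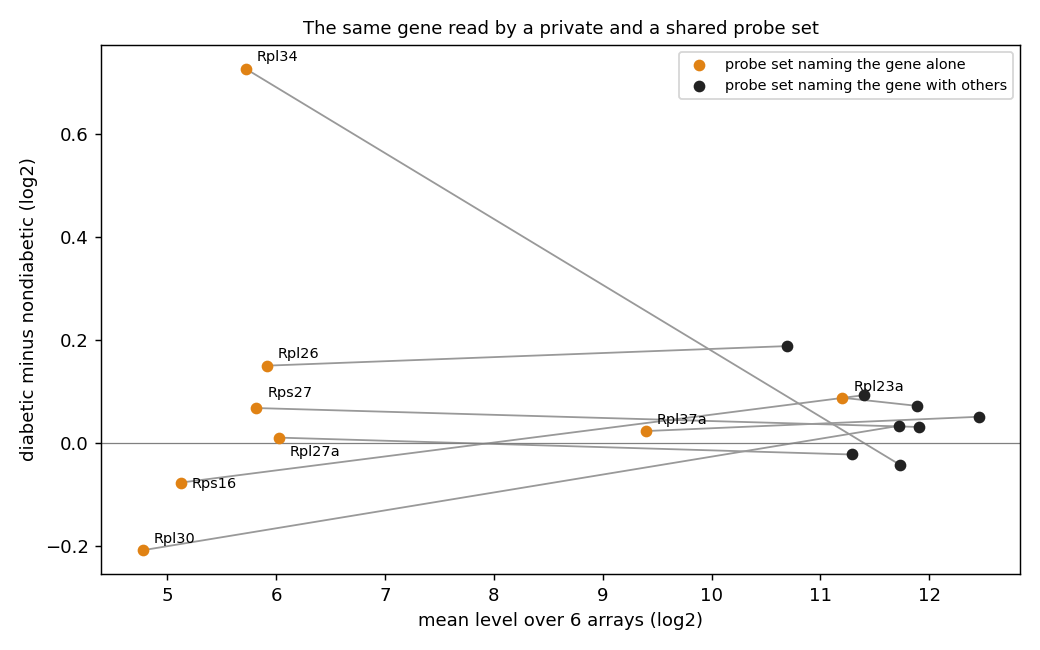
For 8 genes, the difference in log2 level (diabetic minus nondiabetic) is plotted against the mean log2 level for the probe set naming the gene alone (orange) and the brighter one naming it with others (black), joined by a line. Only genes whose shared probe set had a mean level above 9 are shown. The black points lie between -0.04 and 0.19, and the orange points between -0.21 and 0.73.

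Probe sets of the same gene also parted elsewhere. Rps24, named here after its values were seen, had a further probe set at 8.26, 7.98 and 8.40 against 7.93, 7.41 and 7.36, a difference of 0.65 ± 0.21 (SE) without overlap. The brighter probe set used for Rps24 gave 0.07, and the remaining one -0.0018. In a fit of all probe sets, 148 named a ribosomal protein gene, alone or with others. None passed the adjusted test, and 3 (of the 148) had an unadjusted limma p under 0.05, where 4.25% of the 24807 probe sets in that fit did.

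Genes that build, regulate or accompany ribosomes were read from the same fit, and none of them passed the adjusted test. At an unadjusted limma p under 0.05 there were 2 of 47 biogenesis genes, 1 of 23 polymerase genes, 3 of 17 genes of mTOR and tract control and 1 of 34 initiation factors, all higher in the diabetic arrays, where 3.19% of all tested genes were. Of 3 tested S6 kinase genes 1 was lower, where 1.07% of all tested genes were. The list of ribosome biogenesis genes had 33 of 47 higher in the diabetic arrays, with a median difference of 0.08. Ebna1bp2, a nucleolar factor of large subunit assembly, measured 7.55, 7.35 and 7.25 against 6.96, 6.65 and 6.90, a difference of 0.54 ± 0.16 (SE) without overlap. Nhp2, of the box H/ACA particles that modify rRNA, differed by 0.53 ± 0.23 (SE). For RNA polymerases I and III and their factors, 16 of 23 stood higher, with a median of 0.05. Polr3a, the largest subunit of polymerase III, differed by 0.33 ± 0.14 and Taf1a, of the polymerase I selectivity factor, by -0.74 ± 0.33 (SE).

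For mTOR and control of pyrimidine-tract mRNAs, 13 of 17 stood higher, with a median of 0.11. Rheb, the GTPase that activates mTOR, measured 8.32, 7.84 and 8.10 against 7.51, 7.37 and 7.76, a difference of 0.54 ± 0.19 (SE). All its diabetic values lay above the nondiabetic ones. Myc, which drives ribosome production, differed by 0.47 ± 0.20 (SE), also without overlap. Rps6ka5, a kinase of the S6 kinase family whose main targets lie in chromatin, measured 6.80, 6.65 and 6.65 against 7.43, 7.04 and 7.54, a difference of -0.63 ± 0.18 (SE). The other 2 tested genes of that list stood higher, Rps6ka3 by 0.19 ± 0.16 (SE), and the list's median was 0.18. Each of these genes was named because its p was among the 2 smallest in its list.

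Other mRNAs with a pyrimidine tract were even, with 9 of 17 higher and a median of 0.0014. Initiation factors had 20 of 34 higher (median 0.05) and elongation and release factors 7 of 11 (median 0.0068). Eif3j1, a loosely bound initiation factor 3 subunit, differed by 0.74 ± 0.30, and Eef1e1, a scaffold of tRNA synthetases, by 0.88 ± 0.43 (SE). In ribosome quality control 5 of 11 stood higher, with a median of -0.09, and Pelo, which rescues stalled ribosomes, differed by -0.32 ± 0.16 (SE).

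The ribosome of mitochondria is built from separate nuclear genes. Of 71 such genes 68 were tested, and 42 stood higher (61.8%), with a median difference of 0.11. Their median within-group SD, 0.328, was above that of all tested genes, and only 5 (7.35%) had an interval within 0.5 units of 0. Mrps31 measured 6.54, 6.59 and 6.42 against 5.61, 5.98 and 6.07, a difference of 0.63 ± 0.17 (SE) without overlap. Mrpl11 differed by 0.85 ± 0.26 (SE). Neither passed the adjusted test, and 6 of the 68 (8.82%), 5 higher and 1 lower, had an unadjusted limma p under 0.05, where 4.25% of all tested genes did. Whether mitochondrial and cytosolic ribosomal protein genes differed in their response was not tested.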

How the data were processed

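RNA of sorted marrow endothelial cells was amplified, labelled with biotin and hybridised to 6 one-colour arrays, 3 a group. The deposited values are log2 levels made by the authors with RMA, per the submitters' processing notes, a method that corrects background, normalizes arrays to a shared distribution and summarizes probes. The RMA software, its version and the array's genome build were not given in the sources used here, and no sequencing depth exists: the number of arrays limits precision. Of 41345 probe sets, 23521 name 1 gene, 1814 several and 16010 none. Each gene took its brightest probe set naming it alone. Genes whose mean fell under the 40th percentile (log2 5.07) were left out, and 13308 were tested with limma 3.58.1 in R 4.3.3 (lmFit and eBayes, diabetic against nondiabetic, no covariate), with Benjamini-Hochberg adjustment and a threshold of 0.05. The SE of a difference is the moderated one, which draws each gene's SD toward a value shared by all tested genes. That shared SD was 0.235, with a weight of 4.07 degrees of freedom. For Rps6 the moderated SE was 0.14, where its own arrays alone gave 0.030. The fit was checked on simulated data. Figures and counts were made in Python 3.11.15. Sample groups come from the labels.

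Members and gene lists were chosen with earlier results of these data known. Genes were named by the 8 smallest p in each direction, the 4 highest and lowest levels, the 4 largest within-group SDs, the stalk, the 5S particle, Rps6, Rps14, Rps19, Rpsa, paralogs with parents, and 2 genes of each other list. All 69 genes matched RefSeq by gene number. No protein sequence was used here. Alternatives were the dim limit, the choice of probe set, normalization, variance model, weights per array, the replicate number as a block and the omission of single arrays.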

Additional observations from a re-analysis of the deposited data

How the results depend on the processing

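No ribosomal protein gene passed the adjusted test under any of the 18 alternatives. The fit of all probe sets and the restriction to true ribosomal proteins, both among the 18, were added after seeing the data. The restriction only takes genes out of a set with 0 calls, so it could not have added one. The count of all genes called was 1, and 0 with the dim limit at the 60th percentile, which tests fewer genes. With each array left out in turn it was 0 to 1, and the 0 came without the third nondiabetic array. Ribosomal protein genes without overlap between groups numbered 4, or 6.67%, where 7.95% of all tested genes were without overlap in either direction. They numbered 7 (11.7% against 8.0%) with probe sets averaged per gene and 8 of 95 (8.42% against 7.96%) with every probe set on its own. The 95 hold 10 probe sets in 3 groups of identical values, of Rps12, Rpl23a and Rps19. Rps19 therefore counts 2 times among the 8. Fewer arrays overlap less often by construction. Leaving out 1 array gave 6 to 26: 7 without the first (11.9% against 20.1% of all tested genes), 6 without the second (10.2% against 15.8%) and 26 without the third diabetic array (43.3% against 20%). Without the nondiabetic arrays in order there were 7 (11.7% against 16.0%), 13 (21.7% against 16.7%) and 12 (20% against 19.0%). The median difference stayed above 0, from 0.05 after repeated quantile normalization to 0.10 with array weights over the settings with all arrays, and from 0.039 to 0.13 with 1 array left out. Same-numbered arrays had correlations of deviations of -0.036, -0.064 and 0.016, so the numbers were taken as names only. With the replicate block 1 gene and 0 ribosomal protein genes were called, and the median was 0.085. Among the 34 ribosomal protein genes whose differences were recomputed, 20 kept their direction throughout and 33 of 533 recomputed differences reversed. With averaged probe sets Rplp0 was -0.14 and Rps18 0.12. With shared probe sets added, Rpl34 was -0.042 and Rps16 0.094. After repeated quantile normalization Rps6 was -0.0086, Rpl41 -0.0010 and Rps12 -0.0025. With median centring Rps18 was 0.0020 and Rps7 0.0042. With array weights Rpl3 was 0.076, Rps16 0.021, Rps18 0.044 and Rps7 0.11. With 1 array left out, the ranges were -0.078 to 0.40 for Rplp0, -0.34 to 0.087 for Rps4l, -0.072 to 0.012 for Rpl22l1, -0.47 to 0.36 for Rpl3, -0.17 to 0.044 for Rps16, -0.33 to 0.27 for Rps23, -0.12 to 0.22 for Rps27, -0.70 to 0.20 for Rpl6, -0.0067 to 0.079 for Rpl41, -0.0040 to 0.13 for Rps12, -0.056 to 0.049 for Rps18 and -0.27 to 0.36 for Rps7. The cause of these reversals was not tested. Rpl5 lay under the dim limit, and Rpl11, Rps14 and Rps16 just above it.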

Other observations

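Another 14 ribosomal protein genes are named only by probe sets that name other genes too, so they lie outside the 69. Of these 10 stood higher in the diabetic arrays, and the differences ran from -0.37 for Rps15a, which was dim, to 0.35 for Rps2. The 8 with a mean level above 9 differed by -0.0075 to 0.16. Rpl36, of the large subunit, measured 11.34, 11.38 and 11.30 in the diabetic and 11.08, 11.33 and 11.14 in the nondiabetic arrays, a difference of 0.16 ± 0.13 (SE) with overlap. Rpl10, which joins the large subunit late in its assembly, differed by 0.0093 ± 0.13 (SE), and Rpl23, at the subunit interface, by 0.0019 ± 0.13 (SE). Rps21, of the small subunit body, differed by 0.01 ± 0.14 (SE). Fau, whose product is cleaved from a ubiquitin-like fusion to give the small subunit protein eS30, measured 11.28, 11.21 and 11.04 against 10.96, 11.21 and 11.24, a difference of 0.04 ± 0.16 (SE).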
